A study of Mus musculus with 5 samples.

Results

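Hepatocytes of mice left 24 h without food were compared with hepatocytes of fed mice taken at the same hour of the day. The cells were chosen as barcodes of these libraries with at least 1000 UMIs (unique molecular identifiers, which count captured RNA molecules), at least 500 genes, 2 to 30% mitochondrially encoded UMIs and under 2% haemoglobin UMIs (Hba and Hbb genes). This left 12402 cells of the 50000 barcodes in the series, 7826 fed and 4576 at 24 h. The same limits left 28810 cells over all 5 libraries of the series. All animals were male C57BL/6J mice of WT genotype on normal chow, from whose livers total hepatocytes were isolated for droplet-based single-cell RNA sequencing (10x Genomics 3' v3). Training for 3 days had allowed all of them food for 8 h in the daytime, with 16 h of fasting overnight, and they received food with 20% sucrose in the drinking water on the day of the experiment. The fed group was killed at 13:00 after 4 h of feeding, and the 24 h group lost food and sucrose water at 13:00 and was killed at 13:00 on the next day. The series title names the question of how gluconeogenic genes change between the fed, fasted and starved states. Of its 4 fasted libraries, the one at 24 h shares its clock hour with the fed library, so that fasting time is not mixed with the hour of sampling. Each group was 1 library, and how many animals it pools is not given in the sources used here. No test across animals was therefore possible, and differences describe these 2 libraries. Intervals are 95% intervals of counting error only.

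After a meal the liver takes up sugar, makes glycogen, fatty acids and cholesterol under insulin, and secretes proteins that are folded in the endoplasmic reticulum (ER). Without food, glucagon, glucocorticoids and fatty acids arriving from fat tissue turn hepatocytes to glucose production from amino acids and lactate, to fatty acid oxidation through the nuclear receptor PPARα, and to ketone body production. Hepatocytes near the portal vein (periportal) carry most glucose and urea production, and those near the central vein (pericentral) most drug metabolism and glutamine synthesis.

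The hepatocyte label held in both libraries. Albumin RNA (Alb) stood at 76395 CPM (UMIs scaled to a common total of nuclear-encoded UMIs) in the fed library and 78449 CPM at 24 h, and 0 of the 8 hepatocyte markers differed 2-fold. The sums rested on 37789268 fed and 37579178 nuclear-encoded UMIs at 24 h. The libraries differed in quality. The median UMI count per cell was 5408 fed and 8979 at 24 h, and the median mitochondrial share was 11.9% and 16.3%. Barcodes under 2% mitochondrial UMIs, which the rule leaves out, made up 21.7% of the fed and 53.9% of the 24 h barcodes. Each library was deposited with exactly 10000 barcodes, by a choice not given in the sources used here, and these shares and the cell numbers depend on that choice. Just inside the 2% limit, 317 fed and 325 24 h cells lay between 2 and 3%, and just outside it 516 and 985 barcodes lay between 1 and 2%. Cells with UMIs of other cell types' markers were rarer at 24 h as a whole, though not for each type. Cells with at least 2 UMIs of such markers numbered 989 (12.6%) fed and 221 (4.83%) at 24 h, of which 552 and 102 had them in the cholangiocyte list, mostly as Sox9 (67.1 and 16.6 CPM). The summed level of the 10 endothelial markers was 101 and 21.6 CPM, and that of the 10 Kupffer cell and macrophage markers was 43.5 and 4.82 CPM, with 0 of the 20 genes at 0 UMIs in either library. The few UMIs of T and NK cell markers (3.15 and 8.06 CPM) and of B and plasma cell markers (0.794 and 3.09 CPM) were higher at 24 h. In the other marker lists, the genes at 0 UMIs included Retnlg (neutrophil) in both libraries and Krt7 (cholangiocyte) in the fed one. Barcode sequences shared between fed and 24 h cells numbered 9.

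Of 2980 genes at 50 CPM or more in either library, 199 were at least 2-fold higher at 24 h (6.68% of those compared) and 317 at least 2-fold lower (10.6%). These shares are the background for the count of each list below, and a list near them is not set apart by its count. The lower genes also reached further: 76 were at least 4-fold lower and 21 at least 4-fold higher. Acot3, which releases free fatty acids from peroxisomal acyl-CoA, had the highest ratio, with 7.81 CPM fed and 137 CPM at 24 h, a log2 ratio (24 h over fed) of 4.13 (3.96 to 4.31). Next came Nlrp12 (3.93), an intracellular sensor gene at 5.56 and 84.6 CPM, the metallothioneins Mt2 and Mt1, and Angptl4. The lowest ratios belonged to the ER genes Creld2 (-4.63, -4.80 to -4.46) and Sdf2l1 (-4.51), the serum amyloid genes Saa2 and Saa1, and fatty acid synthase (Fasn). In absolute level the largest gains were those of Gm42418, Pck1, the iron store gene Fth1, Bhmt and the retinol carrier Rbp4 (4349 to 8588 CPM). Among the largest losses were those of Mup20, the protease inhibitor Serpina3k (12389 to 6659.9 CPM), Mup3 and Scd1. Scaling moved the balance of the counts: TMM normalisation gave 290 higher and 225 lower genes (56.3% of the calls higher, against 38.6%), and median-of-ratios gave 275 and 236. These scalings moved the median log2 ratio of all genes from -0.027 to 0.15 and 0.13. Leaving out cells with marker UMIs of other cell types gave 201 higher and 314 lower genes, among them 196 of the 199 and 310 of the 317.

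**Figure D1:**
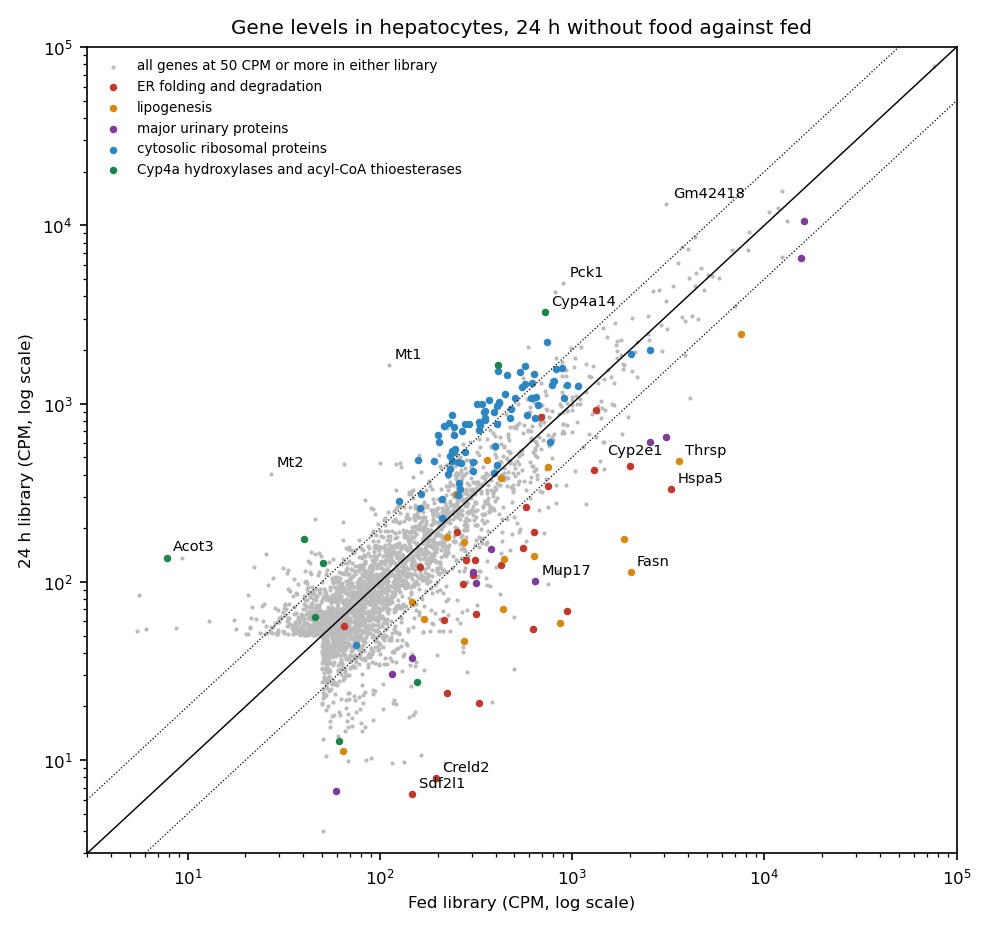
Level of each gene in the fed library (x axis) and in the 24 h library (y axis), in CPM on log scales, for the 2980 genes at 50 CPM or more in either library. The solid line marks equal levels and the dotted lines a 2-fold difference; ER folding genes (red) and lipogenic genes (orange) lie mostly under the lower line, and the ribosomal protein genes (blue) lie mostly above the solid line.

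Among genes of glucose production, Pck1 (ENSMUSG00000027513, chromosome 2, 173153048 to 173159273, plus strand, GRCm38) stood apart. It encodes cytosolic phosphoenolpyruvate carboxykinase, and its level was 899 CPM fed (889 to 909) and 4719 CPM at 24 h (4697 to 4741), a 5.25-fold difference. At 4, 8 and 16 h, taken at other clock hours, it was 3983, 3662 and 3741 CPM, so that the 24 h library held the highest of the 5 levels. The transcription factor gene Foxo1, which insulin signalling restrains at the protein level, was also over 2-fold higher (29.6 to 70 CPM). The other enzymes differed less than 2-fold. Lactate dehydrogenase A (Ldha), which interconverts lactate and pyruvate, lay just under the limit at 329 and 635 CPM (0.95). Glucose-6-phosphatase (G6pc) stood at 398 and 576 CPM (log2 ratio 0.53), pyruvate carboxylase (Pcx) at 243 and 300.4 CPM (0.31), and fructose bisphosphatase (Fbp1) at 1098 and 992 CPM (-0.15). Of the 10 genes of this list at 50 CPM, 2 were at least 2-fold higher and 0 lower, with a median log2 ratio of 0.39. Foxo1 reached 50 CPM at 24 h only, and with a minimum of 10 CPM the median was 0.50 over 12 genes. The sign of Fbp1 and Pcx was the opposite in the barcodes under 2% mitochondrial UMIs (0.47 and -0.18).

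The Pck1 promoter holds a cyclic AMP response element, through which glucagon signalling is known to act on this gene. It is shown because Pck1 had the largest difference of the list; the element's 8 letters (TTACGTCA) were found by search 93 to 86 bases upstream of the RefSeq start (GRCm38.p6) and are in capitals.
Pck1 (chr2:173152960-173153007, plus strand): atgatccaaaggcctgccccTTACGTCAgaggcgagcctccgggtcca
The same letters were present on either strand in 157 of 27025 promoters (0.581%), each read from 250 bases before to 50 bases after the start. They were present in 31 of the 2384 genes compared that have a listed promoter (1.30%), of which 3 were at least 2-fold higher (9.68%) and 2 lower (6.45%), shares near those over all genes compared (6.68% and 10.6%).

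Amino acid catabolism, which feeds glucose production, was higher at a few steps. Cytosolic aspartate aminotransferase (Got1) stood at 121 and 459 CPM, serine dehydratase (Sds) at 127 and 464 CPM, and histidine ammonia-lyase (Hal) at 349 and 926 CPM. Proline dehydrogenase (Prodh) was the fourth at least 2-fold higher gene of the 26 compared. Ornithine aminotransferase (Oat), an enzyme of pericentral cells, was the 1 lower gene (146 to 26.1 CPM). Tyrosine aminotransferase (Tat), a classic fasting gene, was not higher (1657 and 1304 CPM, log2 ratio -0.35), and its 24 h level was the lowest of the 5 libraries. Of the 7 urea cycle genes, 0 differed 2-fold in either direction. The first enzyme, Cps1, was at -0.40, and the list median of 0.096 changed sign under some settings (-0.066 to 0.50).

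One-carbon metabolism contained a difference as large as that of Pck1. Betaine-homocysteine methyltransferase (Bhmt), which remakes methionine from homocysteine, stood at 813 CPM fed and 4219 CPM at 24 h (log2 ratio 2.37, 2.36 to 2.39). Adenosylhomocysteinase (Ahcy, 1.13), on the same route, and nicotinamide N-methyltransferase (Nnmt, 1.07) were the other at least 2-fold higher genes of 15. The related gene Bhmt2 stayed at 273 and 284 CPM.

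Fatty acid oxidation genes differed mostly by small amounts. Of 23 genes, 2 were at least 2-fold higher, a share near the 6.68% over all genes compared, and 0 lower, and the median log2 ratio was 0.57, against -0.027 over all genes compared. Cpt1a, which admits fatty acids to mitochondria, was one of them (129 to 439.7 CPM, 1.77), and its 24 h level was the highest of the 5 libraries. The carrier Slc25a20 lay just under the limit (0.97). The list of Cyp4a hydroxylases and acyl-CoA thioesterases, much-used markers of PPARα activity, held larger ratios. Cyp4a14 stood at 720.0 and 3267 CPM (2.18), Cyp4a10 at 410.2 and 1641 CPM, and Acot4 at 40.5 and 174 CPM (2.10). Their 24 h levels were the highest of the 5 libraries too, as were those of Acot3 and Acot12. Being higher than in the fed library, which is 1 of the 5, by itself raises such ranks. The male-predominant hydroxylases Cyp4a12a (157 to 27.5 CPM) and Cyp4a12b (61.4 to 12.9 CPM) were, in contrast, over 4-fold lower. They are near-identical copies whose split depends on the counting. Of the 8 genes of this list, 5 were higher and 2 lower.

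Among PPARα-linked regulators, 3 of 7 were at least 2-fold higher. Angptl4, an inhibitor of lipoprotein lipase, stood at 9.34 and 136 CPM (3.86), but its highest level was at 8 h (333 CPM), and in the barcodes under 2% mitochondrial UMIs its log2 ratio was 1.67. The receptor gene itself, Ppara, stood at 57.2 and 134 CPM, and the fatty acid binding protein gene Fabp2 at 54.3 and 129 CPM. The fasting hormone gene Fgf21 was under the level minimum in both libraries (6.27 and 3.73 CPM). Of the 8 lipid droplet genes compared, 4 were higher. These were the phosphatidate phosphatases Lpin2 (1.78) and Lpin1 (1.01), the triglyceride lipase Pnpla2 (1.32) and its inhibitor G0s2 (1.06), so that lipase and inhibitor differed in the same direction. The other 4, among them Plin2 (0.095), Plin5 (0.49) and Cideb (-0.52), did not differ 2-fold. Of the 5 ketone body genes, 0 were 2-fold higher. The monocarboxylate carrier Slc16a1, counted with them, was lower (-1.13). Both subunits of the mitochondrial pyruvate carrier were higher, Mpc1 by 1.06 and Mpc2 by 1.03, while the pyruvate dehydrogenase subunit Pdhb went from 319 to 74.6 CPM.

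Lipogenesis was lower at most steps. Of 18 genes, 11 were at least 2-fold lower and 0 higher, with a median log2 ratio of -1.67. Fasn stood at 2021 CPM fed (2006 to 2035) and 114 CPM at 24 h (110.2 to 117), a 17.8-fold difference. The elongase Elovl6 (863 to 59 CPM), the citrate-cleaving enzyme Acly (1860.0 to 174 CPM) and the lipogenic regulator Thrsp (3592 to 477 CPM) followed. The transcription factor Srebf1, which drives these genes under insulin, stood at 438 and 70.8 CPM, and Mlxipl, the carbohydrate-responsive factor, at 170.4 and 61.8 CPM. The desaturase Scd1 was lower at 24 h than in all other libraries: its levels were 7548, 5996, 5168, 9445 and 2452 CPM at 0, 4, 8, 16 and 24 h. Fasn, Srebf1 and Thrsp were lowest at another time, in the order of 83.1 CPM at 4 h, 22.9 CPM at 8 h and 137 CPM at 16 h.

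Sugar use and cholesterol synthesis were lower in part. Liver pyruvate kinase (Pklr, -1.63), the fructose pathway enzyme Tkfc (-1.31) and 6-phosphogluconate dehydrogenase (Pgd, -2.20) were among the 4 lower of 13 glycolysis and sugar uptake genes, and 0 were higher. Ppp1r3b, which targets a phosphatase to glycogen, was the 1 lower gene of 6 in the glycogen list (-1.40). Of 23 cholesterol genes, 8 were lower and 0 higher. Insig1 (1177 to 272 CPM), a sensor of sterols, and squalene epoxidase (Sqle, -1.78) were among them, and the synthase gene Hmgcs1 was not (0.10). Insig2, the insulin-repressed partner of Insig1, went the other way by 0.43.

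**Figure D2:**
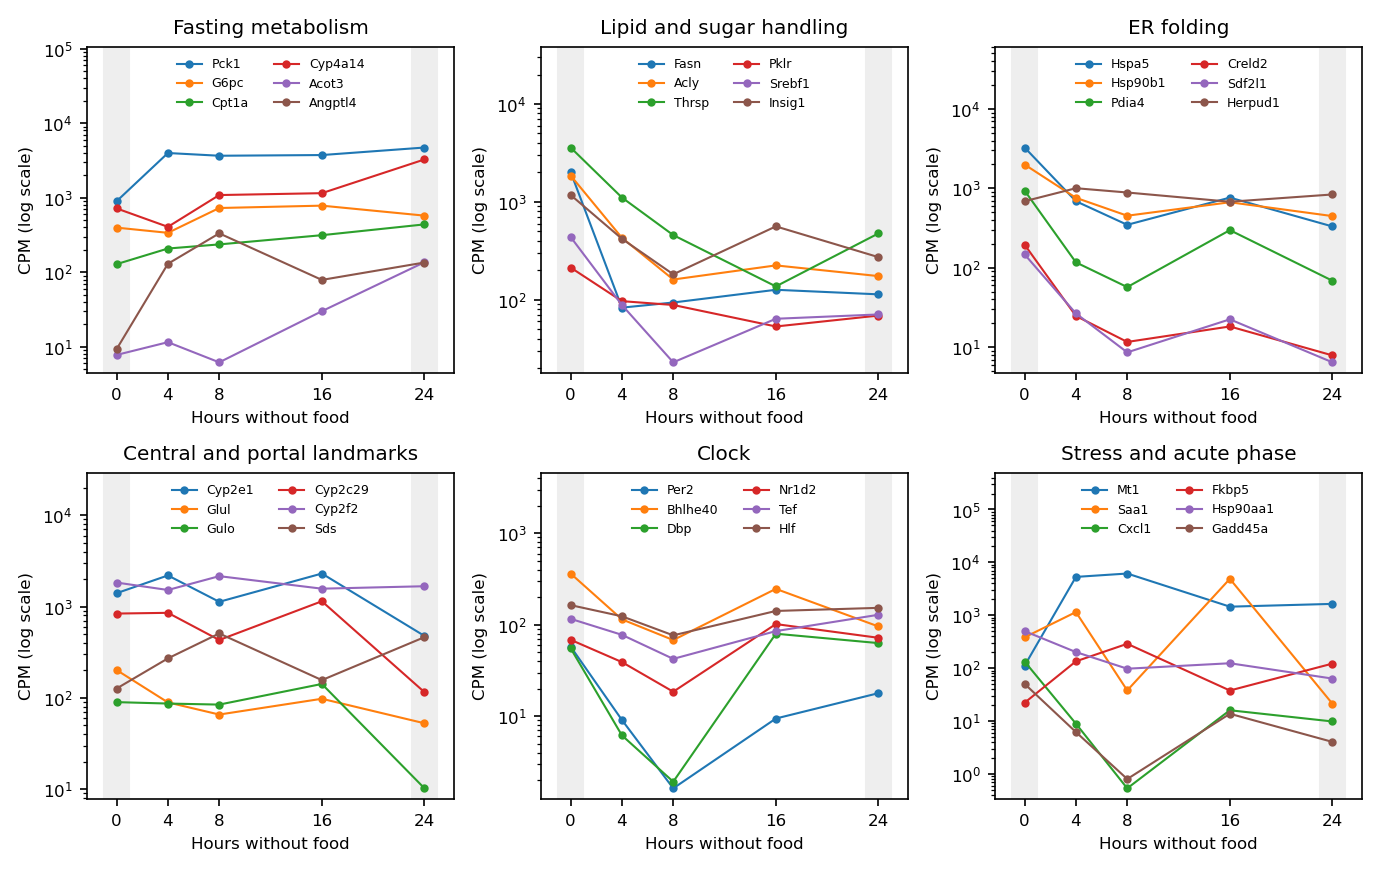
Levels of selected genes in hepatocytes of all 5 libraries, in CPM on log scales, by hours without food, with the compared libraries (0 and 24 h) shaded and 1 library per time. The 4, 8 and 16 h libraries were taken at other clock hours; Fasn and Hspa5 were already low at 4 h, Acot3 was highest at 24 h, and Dbp was back near its fed level at 24 h.

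Genes of protein folding in the ER were lower as a group. Of 25 genes, 20 were at least 2-fold lower and 0 higher, with a median log2 ratio of -1.73, against 10.6% lower over all genes compared. Hspa5 (ENSMUSG00000026864, chromosome 2, 34771970 to 34777547, plus strand), the main chaperone of the ER lumen, stood at 3266 CPM fed (3248 to 3285) and 332 CPM at 24 h (326 to 337), a 9.85-fold difference. Its partners were lower as well: the nucleotide exchange factor Hyou1 (328 to 21 CPM), the co-chaperone Dnajb9 (315 to 66.4 CPM) and Sdf2l1 (148 to 6.47 CPM), which joins ER chaperone complexes. Creld2, an ER-stress inducible disulfide isomerase, was the lowest of all genes compared (195 to 7.9 CPM, from 7385 and 297 UMIs). The secreted stress protein Manf (-3.52), the disulfide isomerase Pdia4 (-3.77), the chaperone Hsp90b1 (-2.15) and calreticulin (Calr, -1.62) differed in the same direction. In the branch that removes misfolded proteins, the ubiquitin ligase Syvn1 went from 224 to 23.9 CPM, and its partner Sel1l by -1.23. The transcription factor Xbp1 (556 to 155 CPM) was lower and the sensor Atf6 was not (-0.22). The 1 member above the fed level was Herpud1 (689 and 838 CPM, 0.28), and in the barcodes under 2% mitochondrial UMIs it was at -0.0049. Most of the difference in Hspa5 was present at 4 h, when its level was 689 CPM, and it stood at 348 CPM at 8 h and 765 CPM at 16 h.

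Some of these genes share a promoter element that ATF6 and XBP1 are known to bind together with the factor NF-Y, the ER stress response element. It was searched as CCAAT, 9 further bases of any kind, and CCACG, on both strands, in the same RefSeq promoters. It was present in 37 of 27025 promoters (0.137%), and in 9 of the 22 ER folding genes with a promoter in the table. Of the 10 genes with the element that were compared, 9 were at least 2-fold lower and 0 higher, with a median log2 ratio of -1.96. It was present in 10 of the 2384 genes compared that have a listed promoter (0.419%), in 9 of the 251 lower genes with a listed promoter (3.59%) and in 0 of the 152 higher ones. Of the 9 lower genes 8 belong to the ER folding list, so that both counts describe largely the same genes, and the ninth is the acetyl-CoA carboxylase gene Acacb (-2.52). Hnrnpa3, an RNA-binding protein gene, held the element and did not differ 2-fold (-0.68). Not all of the lowest ratios came with these letters: Sdf2l1 and Pdia4 had no match in this window, and Hsp90b1 had 2. The promoter stretches below are shown as examples over the range of differences, each with 1 match; capitals mark the element, which reads as its reverse complement where it lies on the other strand.
Hspa5 (chr2:34772005-34772063, plus strand): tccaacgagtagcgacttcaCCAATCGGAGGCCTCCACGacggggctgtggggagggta
Creld2 (chr15:88819500-88819558, plus strand): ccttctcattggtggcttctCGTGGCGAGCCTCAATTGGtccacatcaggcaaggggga
Syvn1 (chr19:6046512-6046570, plus strand): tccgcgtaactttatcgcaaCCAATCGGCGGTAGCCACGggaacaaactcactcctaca
Pdia6 (chr12:17266471-17266529, plus strand): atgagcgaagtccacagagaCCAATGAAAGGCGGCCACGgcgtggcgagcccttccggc
Calr (chr8:84847055-84847113, minus strand): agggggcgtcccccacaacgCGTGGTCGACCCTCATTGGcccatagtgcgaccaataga
Canx (chr11:50325780-50325838, minus strand): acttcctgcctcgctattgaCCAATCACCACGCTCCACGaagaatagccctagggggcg
Dnajc3 (chr14:118937807-118937865, plus strand): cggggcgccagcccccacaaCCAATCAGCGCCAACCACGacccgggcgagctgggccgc
The element lay 65 to 47 bases upstream of the RefSeq start in Hspa5, 126 to 108 in Creld2 and 44 to 26 in Syvn1. The Hspa5 gene position given above starts further upstream than this RefSeq start, so that the stretch shown lies within it. The log2 ratios of Hspa5, Creld2 and Syvn1 were -3.30, -4.63 and -3.23, and those of Pdia6, Calr, Canx and Dnajc3 were -1.78, -1.62, -1.11 and -1.13. Capitals thus mark the same pattern in genes that differed by as much as Creld2 and as little as Canx. A shorter related element (ATTGG, 1 base, CCACG) was present in 12 promoters, among them those of Herpud1, which was above the fed level, and Dnajb11, an ER co-chaperone that was lower (216 to 60.8 CPM). Of the 6 genes with this shorter element that were compared, 1 was at least 2-fold lower.

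Some cytosolic chaperone and growth-arrest genes were lower. The inducible cytosolic chaperone Hsp90aa1 stood at 501 and 63.4 CPM and Hsph1, a nucleotide exchange factor for Hsp70 proteins, at 148 and 17.8 CPM. With Chordc1 (-1.96) and Dnaja1 (-1.04) they were the 4 lower of 10 heat shock genes. The mitochondrial chaperone Hspd1 (-0.076) was among those that did not differ 2-fold. Gadd45a (50.3 to 4.02 CPM), Gadd45g (-2.46) and Klf10 (-2.48), which restrain cell growth after stress or cytokines, were the 3 lower of the 4 growth-arrest genes at 50 CPM, of 12 listed. Gadd45a, Gadd45g and Klf10 reached that level in the fed library only, and with a minimum of 10 CPM the list median went from -2.47 to -0.23 over 10 genes. Of the immediate-early genes, which also respond to tissue dissociation, Dusp1 (-1.80) and Junb (-1.55) were lower and Jund (-0.43) and Zfp36 (0.086) were not. Their part in the other differences was not tested.

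Acute-phase genes, which inflammatory cytokines raise in hepatocytes, were lower in part, led by the serum amyloids. Saa2 stood at 217 and 9.66 CPM and Saa1 at 382 and 21.1 CPM, near-identical genes whose split depends on the counting. Both were far higher at 4 h (1148 CPM for Saa1) and at 16 h (4880.2 CPM), so that the fed to 24 h difference is smaller than the spread over the 5 libraries. Of 23 acute-phase genes, 8 were at least 2-fold lower and 0 higher. They include the fibrinogen chain Fga (3857 to 1874 CPM) and C-reactive protein (Crp, -1.12), while haptoglobin (Hp, 0.023) and the partner chain Fgb (-0.24) did not differ 2-fold. The chemokine gene Cxcl1 stood at 133 and 9.79 CPM. Endothelial and Kupffer cell markers were also lower at 24 h (101 to 21.6 CPM and 43.5 to 4.82 CPM). Leaving out cells with marker UMIs of other cell types was among the settings tried. Outside the barcodes under 2% mitochondrial UMIs, these settings gave log2 ratios of -3.94 to -3.45 for Cxcl1 and -4.35 to -3.98 for Saa1. The part of endothelial and Kupffer cells in this group was not tested beyond that.

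Metallothioneins, which bind zinc and respond to glucocorticoids and metals, were among the highest ratios. Mt1 stood at 111 and 1639.7 CPM (3.88, 3.84 to 3.93) and Mt2 at 27.1 and 405 CPM (3.90), while the zinc exporter gene Slc30a1 was at -0.44 and the manganese exporter gene Slc30a10 went from 71.6 to 17.3 CPM. Mt1 was higher still at 4 h (5308 CPM) and 8 h (6149 CPM). Among glucocorticoid-responsive genes Fkbp5, a chaperone of the glucocorticoid receptor, stood at 22.1 and 122 CPM (2.46), and Klf9 (1.43) and Pim3 (1.38) were higher as well. Tsc22d3, another well-known target, was not (167 and 172 CPM), nor was the receptor gene Nr3c1 (-0.11). The 7 genes of that list thus split into 3 higher and 4 near the fed level, with a median of 0.037, which was 1.06 in the barcodes under 2% mitochondrial UMIs.

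Secreted regulators that follow insulin went in both directions. Angptl8, a feeding-induced inhibitor of lipoprotein lipase, stood at 499 and 32.5 CPM (-3.94), opposite to its relative Angptl4. Igfbp1, which insulin represses, stood at 21.4 and 62.6 CPM (1.55), but it was higher at 4 h (276 CPM) and 8 h (276 CPM). The growth factor gene Igf1 (0.33) and the growth hormone receptor gene Ghr (-0.32) differed less than 2-fold. The activin subunits Inhba (-3.59) and Inhbc (-1.94) were lower, and with Angptl8 they were the 3 lower of 15 genes. The apolipoproteins Apoa5 (827 to 1810.0 CPM) and Apoa4 (148 to 329 CPM) were the 2 higher of 14.

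**Figure D3:**
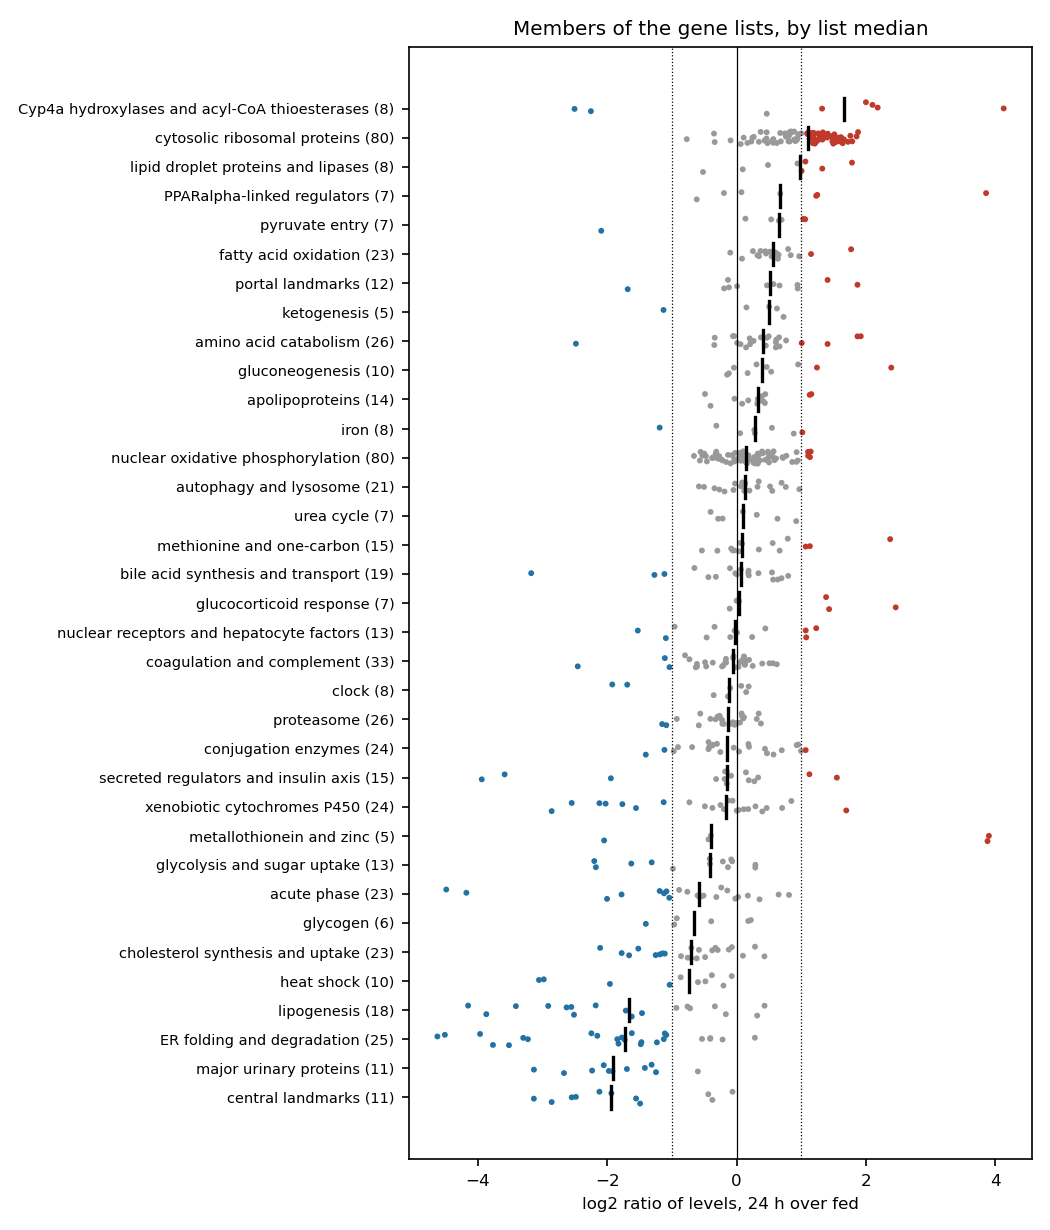
Log2 ratio of levels (24 h over fed, x axis) of the genes of each list with at least 5 genes compared (number in brackets), 1 point per gene at 50 CPM or more in either library. Red points are at least 2-fold higher, blue points at least 2-fold lower, and the black bar is the list median: the medians run from -1.94 for the central landmarks to 1.66 for the Cyp4a hydroxylases and acyl-CoA thioesterases.

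Genes that mark the pericentral side of the liver lobule were lower, and portal ones were not. Of 11 central landmarks, 8 were at least 2-fold lower and 0 higher, with a median log2 ratio of -1.94. Cyp2e1, a major pericentral cytochrome P450, stood at 1404, 2197, 1129.6, 2304 and 478 CPM at 0, 4, 8, 16 and 24 h. Glutamine synthetase (Glul), confined to the last cells around the central vein, stood at 202 and 52.8 CPM. Cyp2c29 (840.1 to 116 CPM), Cyp1a2 (121 to 20.7 CPM) and Gulo (90.1 to 10.2 CPM), an enzyme of vitamin C synthesis, were at least 4-fold lower. Cyp2c50 and Cyp2c37, close relatives of Cyp2c29, were not 2-fold lower (-0.37 and -0.064), but were so in the barcodes under 2% mitochondrial UMIs (-1.92 and -1.76), where 11 of the 11 were. Of 12 portal landmarks, Sds and Hal were higher and the cadherin gene Cdh1 lower (-1.68), with a median of 0.52, and Cyp2f2 stood at 1835 and 1673 CPM. Fewer pericentral cells among those captured and less RNA of these genes per cell cannot be told apart in the sums.

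Levels per cell, given as UMIs per 10000 UMIs of a cell, were lower at 24 h for Cyp2e1 at each percentile computed from the median up. In fed hepatocytes Cyp2e1 had a median of 1.87, a 90th percentile of 59 and a 99th of 169. At 24 h the 90th percentile was 8.82 and the 99th 117, so that some cells with high Cyp2e1 remained. For Cyp2c29 the 99th percentile went from 105 to 18.7. The distributions of some other genes lay further apart. The median of Pck1 went from 6.02 to 39.8, and the 10th percentile at 24 h (12.5) lay above the fed median. For Bhmt, 98.3% of the 24 h cells lay above the fed median of 7.04. Fasn had a 10th percentile of 6.18 in fed cells and a 99th of 5.86 at 24 h, and the median of Hspa5 went from 31.5 to 2.82. The 24 h cells had more UMIs each (a median of 8979 against 5408), which narrows the spread of such values from counting alone.

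**Figure D4:**
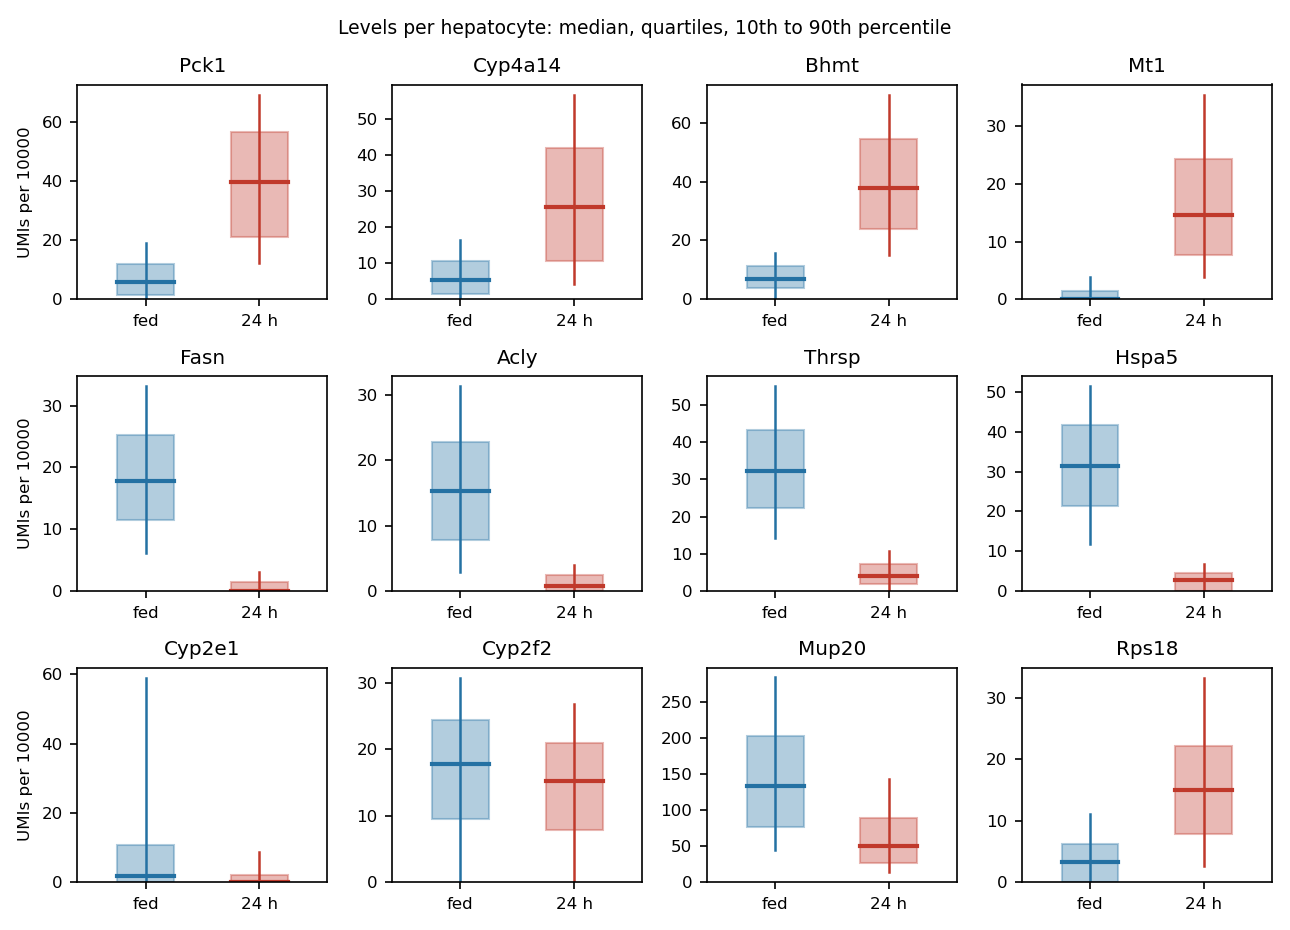
Level of 12 genes per hepatocyte, in UMIs per 10000 UMIs of the cell (y axis, linear), in the fed library (blue, 7826 cells) and at 24 h (red, 4576 cells). The thick line is the median, the box spans the quartiles and the thin line runs from the 10th to the 90th percentile over the cells of 1 library; the boxes of Cyp2e1, Cyp2f2 and Mup20 overlap between libraries, and those of the other 9 genes do not.

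Drug metabolism differed gene by gene. Of 24 cytochromes P450 of the Cyp1, Cyp2 and Cyp3 families and their reductase, 7 were at least 2-fold lower, among them Cyp2c70 (253 to 62 CPM), and the reductase gene Por was the 1 higher (159 to 516 CPM). In the barcodes under 2% mitochondrial UMIs 12 of the same 24 were lower and 0 higher, and the median log2 ratio was -1.30 against -0.16. Cyp3a11, the most abundant of them, stood at 4696 and 5748 CPM. Among 24 conjugation enzymes 2 were at least 2-fold lower, among them the glucuronosyltransferase Ugt2b1 (-1.12), and 1 was higher (Nnmt), no larger a share than over all genes compared (10.6% and 6.68%). Of the bile acid genes, Slco1a1, an organic anion uptake carrier, stood at 283 and 31.2 CPM (-3.18), and the synthesis enzymes Cyp7b1 (-1.27) and Cyp7a1 (72.6 to 33.5 CPM), the rate-limiting step, were lower. The other 16 of 19 did not differ 2-fold (over all genes compared 10.6% were lower and 6.68% higher), and the list median of 0.065 was -0.67 in the barcodes under 2% mitochondrial UMIs. Of the receptors behind these genes, Nr1i3 (1.07) and Nr1i2 (1.08) were higher, and the hepatocyte factors Foxa3 (-1.53) and Onecut1 (-1.09) lower.

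Major urinary proteins, lipocalins that male mice secrete in large amounts, were lower as a family. Of 11 genes, 10 were at least 2-fold lower and 0 higher, and their summed level (all 22 genes in the file) was 39310 CPM fed and 18998 CPM at 24 h. Mup20 stood at 15541 and 6548 CPM, Mup11 at 3073 and 653 CPM, and Mup17 at 643 and 101 CPM. Mup3, the most abundant, was the 1 that did not pass 2-fold (-0.60). These genes are near-identical, so that the split among them depends on how reads matching several genes were counted, and the sum may too. Selenbp2, a selenium-binding protein gene outside the family, stood at 163 and 10.7 CPM, with 685 CPM at 8 h.

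Because both libraries were taken at 13:00, the levels of clock genes bear on the hour. Of 19 listed, 8 reached 50 CPM, of which 2 were at least 2-fold lower and 0 higher, too few genes to read against the 10.6% and 6.68% over all genes compared. Dbp, an output gene with a strong daily rhythm, stood at 55.3 CPM fed and 62.9 CPM at 24 h, against 6.17, 1.92 and 79.7 CPM at 4, 8 and 16 h. Nr1d2 (68.4 and 71.9 CPM) and Tef (116 and 128 CPM) were likewise near their fed levels. Per2 was not: it stood at 57.7 CPM fed and 17.9 CPM at 24 h (-1.69, -1.82 to -1.57), and Bhlhe40, which feeding induces, at 363 and 95.6 CPM (-1.92). Per1 (9.61 and 27 CPM, log2 ratio 1.49), Arntl (5.5 and 6.71 CPM) and Nr1d1 (14.1 and 8.94 CPM) were under the level minimum. Per2 reached that minimum in the fed library only, so that the counts of lower and higher clock genes depend on it. With a minimum of 10 CPM, which Per1 meets, the list median went from -0.12 to 0.11.

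Ribosomal protein genes made up 42 of the 199 higher genes, and their difference depended on the choice of barcodes. Of 80 cytosolic ribosomal protein genes, 42 were at least 2-fold higher and 0 lower, with a median of 1.11, and their summed level was 36513 CPM fed and 68744 CPM at 24 h. Rps18 stood at 412 and 1514 CPM (1.88), while Rpl41 (-0.35) and Rps29 (-0.093) did not follow. In the barcodes under 2% mitochondrial UMIs the median was 0.15, with 4 of these 80 genes higher and 6 lower. The summed level was higher still at 4 h (89036 CPM) and 8 h (81754 CPM) and stood at 41917 CPM at 16 h. Median UMIs per cell were also higher at 4 h (12097) and 8 h (15005) than at 16 h (4391), and their part in the result was not tested. The nuclear-retained RNAs Neat1 (1457 to 610.4 CPM) and Malat1 (4528 to 2982 CPM), used as a sign of RNA quality, were at log2 ratios of -1.26 and -0.60, and at -1.87 and -1.81 in the barcodes under 2%, and their part was not tested either. Gm42418 (3093 to 13184 CPM) and AY036118 (65.4 to 458 CPM), which overlap ribosomal RNA sequence, were also higher, and both were higher again in the barcodes under 2%, AY036118 at 860.5 and 3841 CPM. After 10% of each library's UMIs were subtracted as free RNA, the log2 ratio of Gm42418 went from 2.09 to 2.83. The profile subtracted came from part of the barcodes under 2%. For AY036118 it took away the whole fed level, which was then set to a floor of 3 counts. Its ratio of 9.91, against 2.81, is therefore set by that floor and is not a measured difference. Of 80 nuclear genes of oxidative phosphorylation 4 were higher, a share under the 6.68% over all genes, and 0 lower, with a median of 0.14, which was 0.60 with no lower mitochondrial limit.

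The barcodes under 2% mitochondrial UMIs, which the rule left out, gave a second look at the same contrast in other barcodes of the same libraries (2170 fed and 5385 at 24 h). Of the 199 higher genes 190 were above the fed level there and 91 at least 2-fold, and of the 317 lower genes 316 were below it and 270 at least 2-fold. Among all 516 genes counted in either direction, the ratio of 186 moved by more than 1.5-fold. Pck1 (3.07), Acot3 (3.76), Fasn (-4.48), Hspa5 (-4.19) and Cyp2e1 (-2.64) kept their direction there. Genes named above as higher whose log2 ratio was under 1 there include Por (0.14), Foxo1 (0.57), Cpt1a (0.79), Cyp4a10 (0.71), Ppara (0.75), Lpin1 (0.37), G0s2 (0.84), Prodh (0.53), Igfbp1 (0.45), Apoa5 (0.44), Apoa4 (0.48), Nr1i3 (0.77) and Nr1i2 (0.79). Some lists held more or fewer such genes there: 8 of 23 fatty acid oxidation genes and 6 of 12 portal landmarks were at least 2-fold higher, against 2 in each list, and 3 of 8 Cyp4a hydroxylases and acyl-CoA thioesterases, against 5. Across the genes compared, the log2 ratios of both sets had a Pearson correlation of 0.825, a description over genes that share libraries.

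**Figure D5:**
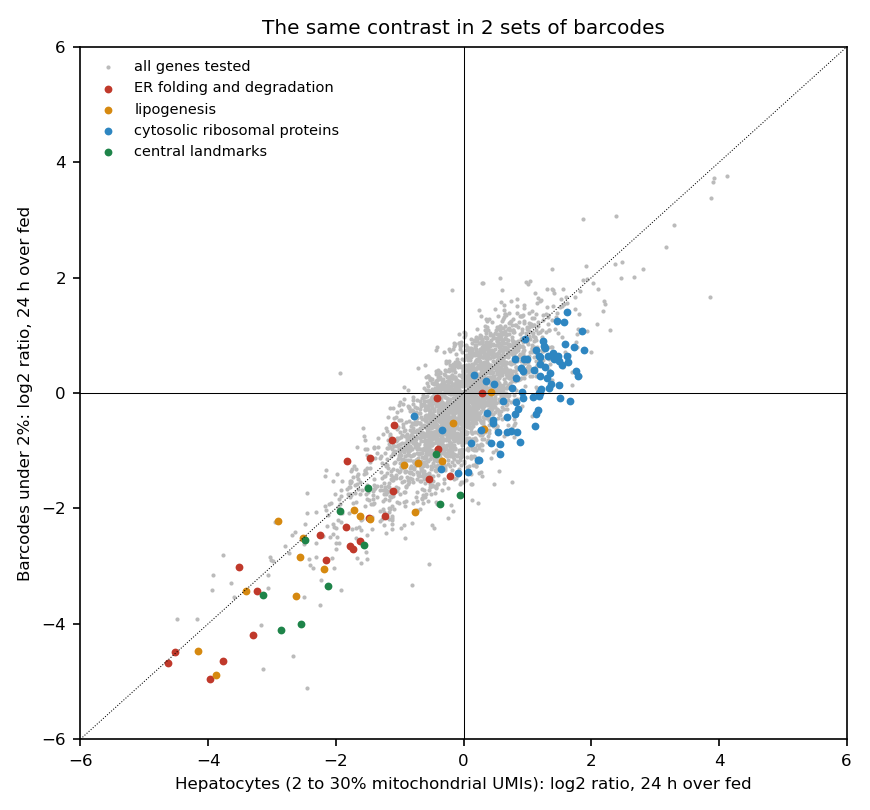
Log2 ratio (24 h over fed) of the 2980 genes in hepatocytes with 2 to 30% mitochondrial UMIs (x axis) and in the barcodes under 2% (y axis), with the dotted line marking equal ratios. ER folding genes (red), lipogenic genes (orange) and central landmarks (green) lie mostly low on both axes, and ribosomal protein genes (blue) lie mostly right of 0 on the x axis and around 0 on the y axis.

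Set beside the other fasted libraries, which share the fed control, the 24 h level was the highest of the 5 for 92 of the 199 higher genes and the lowest for 178 of the 317 lower genes. These genes were chosen as 2-fold apart from the fed library, which is 1 of the 5, and that choice alone raises both counts, so that nothing is read from them. The 5 levels come from 5 libraries at 4 clock hours, and time without food and hour of day cannot be told apart at 4, 8 and 16 h.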

How the data were processed

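Total hepatocytes of 5 groups were profiled by 10x Genomics 3' v3 sequencing, and the fed and 24 h libraries were analysed. The deposited values are raw UMI counts per gene and barcode, made by the authors with Cell Ranger 6.0.1 on mm10, per the file headers and the submitters' processing notes. The version of the annotation is not given in the sources used here. A deposited barcode table names the library of each of 50000 barcodes (10000 per library) and no cell type. Total counts were 47071146 UMIs fed and 63930406 UMIs at 24 h. Unused columns of per-sample values numbered 0.

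Hepatocytes were chosen by the limits given above on UMIs, genes, mitochondrial and haemoglobin shares. No doublet caller was used and 0 doublets were removed. UMIs were summed per library and divided by nuclear-encoded UMIs (CPM), with exact Poisson intervals for levels and exact conditional binomial intervals for ratios. Genes at 50 CPM or more in either library were compared, and a difference of at least 2-fold was counted. With 1 library a side no p-value was computed. Python 3.11.15 with numpy 2.4.6, scipy 1.17.1 and pandas 2.3.3 was used, and edgeR 4.0.16 in R 4.3.3 for TMM factors only. The ratio script was tested on simulated data.

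Named genes are the 15 highest and 15 lowest ratios, the 5 largest level gains and losses, up to 4 members at each end of each list, and 21 defining genes. Other list members, such as Xbp1 and Calr, were added after their values were seen. The cells, gene lists and promoter motifs were chosen with earlier results of these data known, so that no list is independent evidence. Of 32285 genes, 32158 (99.6%) were found in GENCODE M21 (GRCm38), which gives gene positions. Promoters are those of RefSeq for GRCm38.p6, with 2384 of the genes compared in the table. In all, 15 other settings were tried. Some genes of the lists are not reported here by name.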

Additional observations from a re-analysis of the deposited data

How the results depend on the processing

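Over 15 other settings (mitochondrial, UMI and complexity limits, cells with other markers left out, other denominators and scalings, mean of per-cell levels, cells thinned to 1000 UMIs, 10% free RNA subtracted, other level minimums) the 2-fold counts stayed within 1.5 times of 199 higher and 317 lower, except with the level minimum. A minimum of 10 CPM gave 348 higher and 645 lower of 7356 genes, and one of 200 CPM gave 105 and 112 of 887, since more or fewer genes were then compared. With no lower mitochondrial limit the counts were 296 and 385, with at most 15% mitochondrial UMIs 294 and 368, and in the barcodes under 2% alone 236 and 444. The free RNA profile was taken from part of the barcodes under 2%, so that both settings rest on some of the same barcodes. These count as cells in one and as free RNA in the other, and the settings are not separate checks. Single ratios were followed for 299 genes under 13 of these settings, all but the level minimums. Of the 134 of them at least 2-fold apart, and of the 8 lists with such a median, 0 changed direction. Genes added later, such as Xbp1 and Calr, were not among the 299. Of all 41 list medians, 16 changed sign under at least 1 setting, each at under 2-fold to begin with. In the barcodes under 2% these include the iron list (0.28 to -0.29), the autophagy list (0.12 to -0.48), the bile acid list (0.065 to -0.68), the mitochondrially encoded genes (0.41 to -0.39) and the immediate-early list (-0.99 to 0.10, or -0.43 over the same genes). With the 200 CPM minimum the metallothionein and zinc list went from -0.40 to 3.89. At this depth counting error was small (the interval excluded 0 for 2737 of 2980 genes), and the spread between animals is unknown. No paired analysis was possible because each group is 1 library and the result comes from no test.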
